A study of Mus musculus with 6 samples.

Results

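Glycolysis and gluconeogenesis were examined as a set of 34 genes: the glucose transporters Slc2a1 and Slc2a3, the glycolytic enzymes and their isozymes, both lactate dehydrogenase subunits, the 4 pyruvate dehydrogenase kinases, ketohexokinase and the enzymes of gluconeogenesis. Members were taken by gene symbol, and every probe set whose platform symbol equalled a member was used, which gave 69 of the 45101 probe sets on the array. Of these, 7 were control probe sets of the array, for Gapdh and Pcx, and the other 62 covered 31 members. Gapdh was read by control probe sets and by probe sets shared with pseudogenes, and no probe set carried the symbols Eno1 or Gpi1 in the annotation used here. The set thus held 31 of 18161 genes with a value of their own, 15 of them with several probe sets.

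The arrays compared the epithelium of the mouse small intestine with the mesenchyme beneath it, at E18.5, counted in days of gestation, shortly before birth. Embryos came from C57BL/6 females and carried no stated genetic change. The whole length from duodenum to cecum was used in both groups, and the epithelium was shaken off in the cold in a commercial cell recovery solution. Each of the 3 epithelial arrays (A, B, C) and 3 mesenchymal arrays (A, B, C) carried RNA pooled from 3 embryos. Pools had been picked from 6 per tissue for low cross-contamination by RT-PCR. The mesenchyme is everything that stayed behind, so it holds muscle, vessels, nerves and blood cells besides connective tissue. In such bulk samples, fewer cells of a type and less RNA per cell cannot be told apart.

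Glycolysis splits glucose into pyruvate, which is either reduced to lactate or burnt in mitochondria. Gluconeogenesis runs the other way and uses the same reversible enzymes, but it needs enzymes of its own to pass the irreversible steps of hexokinase, phosphofructokinase and pyruvate kinase. Several steps are carried out by isozymes from different genes, which differ in affinity, regulation and tissue. In rodents, the small intestine is known as a gluconeogenic tissue beside liver and kidney, above all around birth.

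Values were log2 expression values made with RMA, with array medians of 8.1 to 8.6 in the epithelium, against 8.5 to 8.7 in the mesenchyme. Arrays correlated at 0.978 or more within a tissue and at 0.813 or less between tissues. Differences are means of epithelial arrays minus means of mesenchymal arrays in log2 units, and errors after ± are standard errors of the limma fit over all probe sets unless named SD. The limits for a called gene were an adjusted p under 0.05 and a difference of at least 1, which is 2-fold. A gene was represented by its brightest probe set. Defining markers followed the labels: 9 of 9 enterocyte genes were higher in the epithelium, and 8 of 8 smooth muscle and 5 of 5 endothelial genes were higher in the mesenchyme. Vil1 and Actg2 among them had also served to pick the pools. The log2 summed level of the enterocyte markers was 17.16 to 17.40 in the epithelium, against 13.12, 12.97 and 14.22 in mesenchyme A, B and C. Among mesenchymal arrays, these markers were thus highest in array C. The summed smooth muscle markers stood at 11.74 to 11.92 in the epithelium, against 16.62 to 16.67 in the mesenchyme.

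The gluconeogenic genes Pck1, Fbp1, Fbp2 and G6pc were higher in the epithelium, whereas both hexokinases, the transporter Slc2a3 and the isozymes Eno2, Pkm and Ldhb were higher in the mesenchyme. The shared steps from aldolase to phosphoglycerate mutase differed by less than 2-fold, apart from Pgam2, which lay on that limit. At enolase, the next shared step, Eno2 differed by -2.47 and Eno3 by -0.77, and Eno1 had no value. Of 31 members, 14 changed (45.2%), against 24.1% of all genes tested. The epithelium was higher for 7 members, against 8.19% of all genes, and these were Pck1, Fbp1, Fbp2, G6pc, Pdk2, Pfkfb3 and Pgam2. Without epithelium B, the first 4 of these kept their call and the number was 4. The mesenchyme was higher for 7 members, against 15.9% of all genes, and these were Hk1, Slc2a3, Eno2, Hk2, Ldhb, Pkm and Pck2. This balance of 7 and 7 became 9 and 5 with equal medians or ribosomal protein genes set equal, and 4 and 8 with equal spike-in controls. The median difference was 0.40 over the members and -0.17 over all genes. At the adjusted p alone, 9 more members passed, against 44.5% of all genes in total. Arrays of the tissues did not overlap for 22 members, against 46.5% of all genes.

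**Figure D1:**
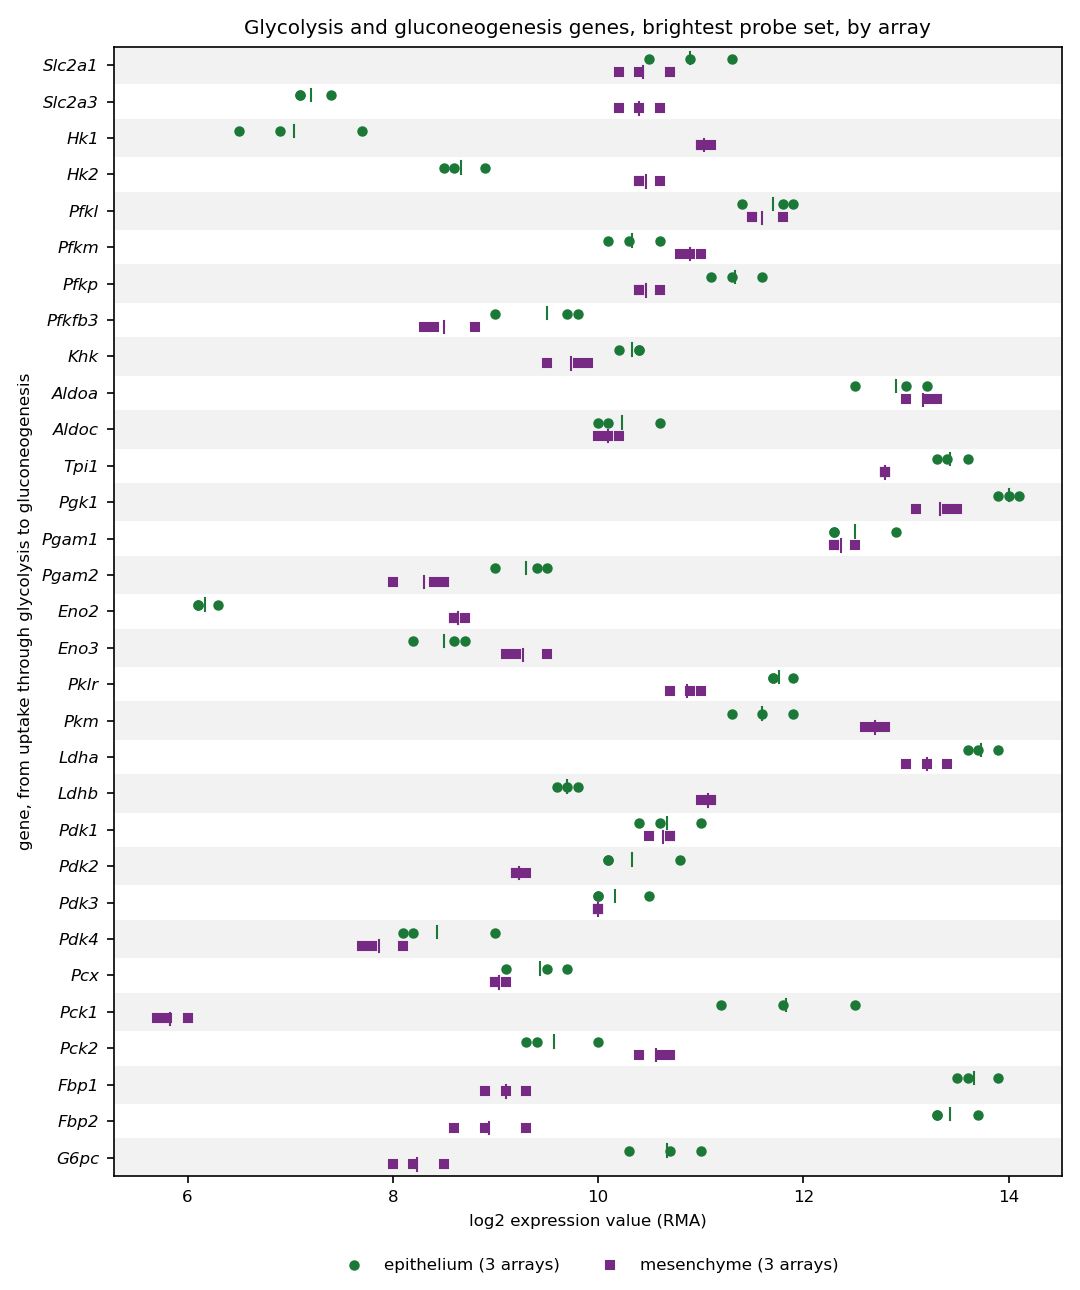
Log2 expression value (x axis) of the brightest probe set of 31 genes (y axis, ordered from uptake to gluconeogenesis) in 3 epithelial arrays (green circles) and 3 mesenchymal arrays (purple squares), with vertical ticks at the means. Epithelial and mesenchymal arrays stand far apart for Pck1, Fbp1, Fbp2 and G6pc on one side and for Hk1, Slc2a3, Eno2 and Hk2 on the other, and they overlap for Slc2a1, Pfkl, Aldoa, Aldoc, Pgam1, Pdk1, Pdk3, Pdk4 and Pcx.

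Of the transporter genes in the set, only Slc2a3 was called. Slc2a3, which encodes the high-affinity carrier GLUT3, stood at 7.1, 7.4 and 7.1 in epithelium A, B and C and at 10.4, 10.6 and 10.2 in mesenchyme A, B and C (probe set 1437052_s_at). The groups did not overlap, and the difference of -3.20 ± 0.23 passed (adjusted p = 1.84e-14). Of its 4 probe sets, 3 were called higher in the mesenchyme, and differences ran from -3.20 to -0.57. With probe sets that may read several transcripts avoided, the gene's difference was -1.07 and kept its call. Slc2a1, which encodes the widely expressed carrier GLUT1, read 10.5, 10.9 and 11.3 in the epithelium, against 10.4, 10.2 and 10.7 in the mesenchyme. Here the groups overlapped, and the difference of 0.47 ± 0.24 did not pass, nor did those of its other probe sets (0.20 and 0.40).

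Hexokinases trap glucose in the cell by phosphorylation, and both members were higher in the mesenchyme. Hk1, the constitutive form bound to mitochondria, was at 6.5, 7.7 and 6.9 in the epithelium, against 11.0, 11.1 and 11.0 in the mesenchyme (1437974_a_at). The difference was -4.00 ± 0.25 (16-fold, adjusted p = 5.67e-16), and its second probe set gave -2.37 ± 0.23. Hk2, the insulin- and hypoxia-responsive form, was at 8.6, 8.9 and 8.5 in the epithelium, against 10.6, 10.4 and 10.4 in the mesenchyme, a difference of -1.80 ± 0.23 (adjusted p = 2.76e-08). No array of one tissue reached the range of the other for either gene. Hkdc1, a hexokinase-like gene outside the set, went the other way, with 11.8, 12.5 and 12.2 in the epithelium, against 9.6, 9.6 and 9.8 in the mesenchyme (2.50 ± 0.23, adjusted p = 2.40e-11). Hk3, the form of myeloid cells, stood at 9.97 ± 0.06 in the epithelium, against 10.23 ± 0.06 in the mesenchyme (SD, n = 3 each) and was not called.

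Phosphofructokinase, the committed step of glycolysis, is built from liver (Pfkl), muscle (Pfkm) and platelet (Pfkp) type subunits, and none of the 3 genes was called. Pfkl was at 11.4, 11.9 and 11.8 in the epithelium, against 11.5, 11.8 and 11.5 in the mesenchyme, a difference of 0.10 ± 0.23 with overlapping arrays, and its probe sets ranged from -0.53 to 0.10. For Pfkm the arrays did not overlap, with 10.1, 10.6 and 10.3 in the epithelium, against 11.0, 10.9 and 10.8 in the mesenchyme, and the difference was -0.57 ± 0.23. Pfkp ran opposite to Pfkm, with 11.1, 11.6 and 11.3 in the epithelium, against 10.6, 10.4 and 10.4 in the mesenchyme. Its difference of 0.87 ± 0.23 lay under the 2-fold limit, while another of its probe sets passed (1430634_a_at, 1.03 ± 0.24, adjusted p = 0.000536) and the last one gave -0.30 ± 0.23. Pfkp passed under 3 scalings of the arrays, with 1.01 after quantile normalization, 1.17 with equal medians and 1.18 with ribosomal protein genes set equal.

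Pfkfb3 encodes an enzyme that makes fructose 2,6-bisphosphate, the activator of phosphofructokinase. Its arrays read 9.0, 9.8 and 9.7 in the epithelium, against 8.8, 8.3 and 8.4 in the mesenchyme, all epithelial arrays being higher. The difference was 1.00 ± 0.24 (adjusted p = 0.00105), exactly on the limit, and its second probe set differed by 0.17 ± 0.23. The call ended in the mean of both probe sets (0.58), with equal spike-in controls (0.74, or 0.93 with mesenchyme B left out), and without epithelium B (0.85), epithelium C (0.90), mesenchyme B (0.90) or mesenchyme C (0.95). Pfkfb4, an isozyme outside the set, was higher in the epithelium by 1.27 ± 0.23.

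Among the enzymes shared by both directions of the pathway, Aldoa, Tpi1 and Pgk1 were read by bright probe sets in both tissues. Aldoa, the general aldolase, was at 12.5, 13.2 and 13.0 in the epithelium, against 13.3, 13.2 and 13.0 in the mesenchyme (-0.27 ± 0.24), and its 5 probe sets, all of a type that can read related sequences, gave -0.37 to -0.17. Aldoc, known as the aldolase of brain, differed by 0.13 ± 0.23, and by 0.57 ± 0.23 in a dimmer probe set. Neither aldolase was called, and the arrays of both overlapped in the brightest probe set. Tpi1, which interconverts the triose phosphates, read 13.3, 13.6 and 13.4 in the epithelium, against 12.8 in each mesenchymal array. Pgk1, the first ATP-forming enzyme, read 13.9, 14.1 and 14.0 in the epithelium, against 13.4, 13.1 and 13.5 in the mesenchyme. For both genes all epithelial arrays exceeded all mesenchymal arrays, and differences of 0.63 ± 0.22 (Tpi1) and 0.67 ± 0.23 (Pgk1) stayed under 2-fold, as did those of their other probe sets, up to 0.90 and 0.80. Khk, which lets fructose enter below phosphofructokinase, had 10.2, 10.4 and 10.4 in the epithelium, against 9.9, 9.5 and 9.8 in the mesenchyme (0.60 ± 0.23, not called).

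Gapdh, often used as a reference gene, read nearly alike in both tissues. Its 3' control probe set gave 14.1, 14.4 and 14.2 in the epithelium, against 14.1, 14.0 and 14.1 in the mesenchyme, a difference of 0.17. The 5' and middle control probe sets differed by 0.10 and 0.23, and exact permutation tests over arrays gave p = 0.3, 0.7 and 0.2 for the 3', 5' and middle sets (two-sided, where 0.1 is the smallest p possible). Probe sets shared with Gapdh pseudogenes differed by -0.03, 0.17 and 0.50.

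Mutases and enolases showed isozyme differences in both directions. Pgam1, the general phosphoglycerate mutase, read 12.3, 12.9 and 12.3 in the epithelium, against 12.5, 12.3 and 12.3 in the mesenchyme (0.13 ± 0.23). Pgam2, named as the muscle form, was at 9.0, 9.5 and 9.4 in the epithelium, against 8.5, 8.0 and 8.4 in the mesenchyme. It was thus the muscle-named gene that was higher in the tissue without muscle, by 1.00 ± 0.23 (adjusted p = 0.000680). This call, on the limit, ended with equal spike-in controls (0.74, or 0.88 with mesenchyme B left out) and without epithelium B (0.90), epithelium C (0.95) or mesenchyme B (0.85). Smooth muscle markers ran the opposite way in 8 of 8 genes. Of 11 striated muscle markers, 4 were higher in the mesenchyme and 1 (Mylpf, 1.10 ± 0.23) in the epithelium, with summed levels of 11.61 to 11.81 in the epithelium, against 13.29 to 13.37 in the mesenchyme.

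Eno2, the enolase of neurons, read 6.1, 6.3 and 6.1 in the epithelium, against 8.7, 8.6 and 8.6 in the mesenchyme. Epithelial values lay close to the bacterial control probe sets, which averaged 5.92 to 6.07 in these arrays. Eno2 was thus at least 5.53-fold lower in the epithelium (-2.47 ± 0.22, adjusted p = 1.13e-11). Enteric neuron and glia markers moved the same way in 5 of 8 genes, with summed levels of 11.08 to 11.40 in the epithelium, against 13.55 to 13.65 in the mesenchyme, and their part in the Eno2 result was not tested. Eno3, the muscle enolase, had 8.2, 8.6 and 8.7 in the epithelium, against 9.5, 9.1 and 9.2 in the mesenchyme. Its arrays did not overlap, and its difference of -0.77 ± 0.23 passed the 2-fold limit only with equal spike-in controls (-1.03).

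Pyruvate kinase ends glycolysis and is encoded by Pklr, the form of liver and red cells, and Pkm, the form of most other tissues. Pkm was at 11.3, 11.9 and 11.6 in the epithelium, against 12.7, 12.8 and 12.6 in the mesenchyme (-1.10 ± 0.23, adjusted p = 0.000179). Its single probe set does not tell the M1 and M2 splice forms apart here, and the call ended with equal medians (-0.80), with ribosomal protein genes set equal (-0.78) and without epithelium A (-0.95). Pklr depended on the probe set. The brightest one (1421259_at) read 11.7, 11.9 and 11.7 in the epithelium, against 11.0, 10.9 and 10.7 in the mesenchyme (0.90 ± 0.23), which was not called. Probe set 1421258_a_at read 12.3, 12.7 and 12.2 in the epithelium, against 9.4 in all mesenchymal arrays (3.00 ± 0.23, adjusted p = 1.08e-13). Probe set 1438711_at read 12.0, 12.5 and 12.2 in the epithelium, against 8.2, 8.3 and 8.2 in the mesenchyme (4.00 ± 0.23, 16-fold, adjusted p = 3.30e-17). All 3 had non-overlapping arrays with the epithelium above, and the brightest one differed from the rest by its high mesenchymal reading. The gene was called in the mean of the 3 probe sets (2.63), with equal medians (1.20) and with ribosomal protein genes set equal (1.22).

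**Figure D2:**
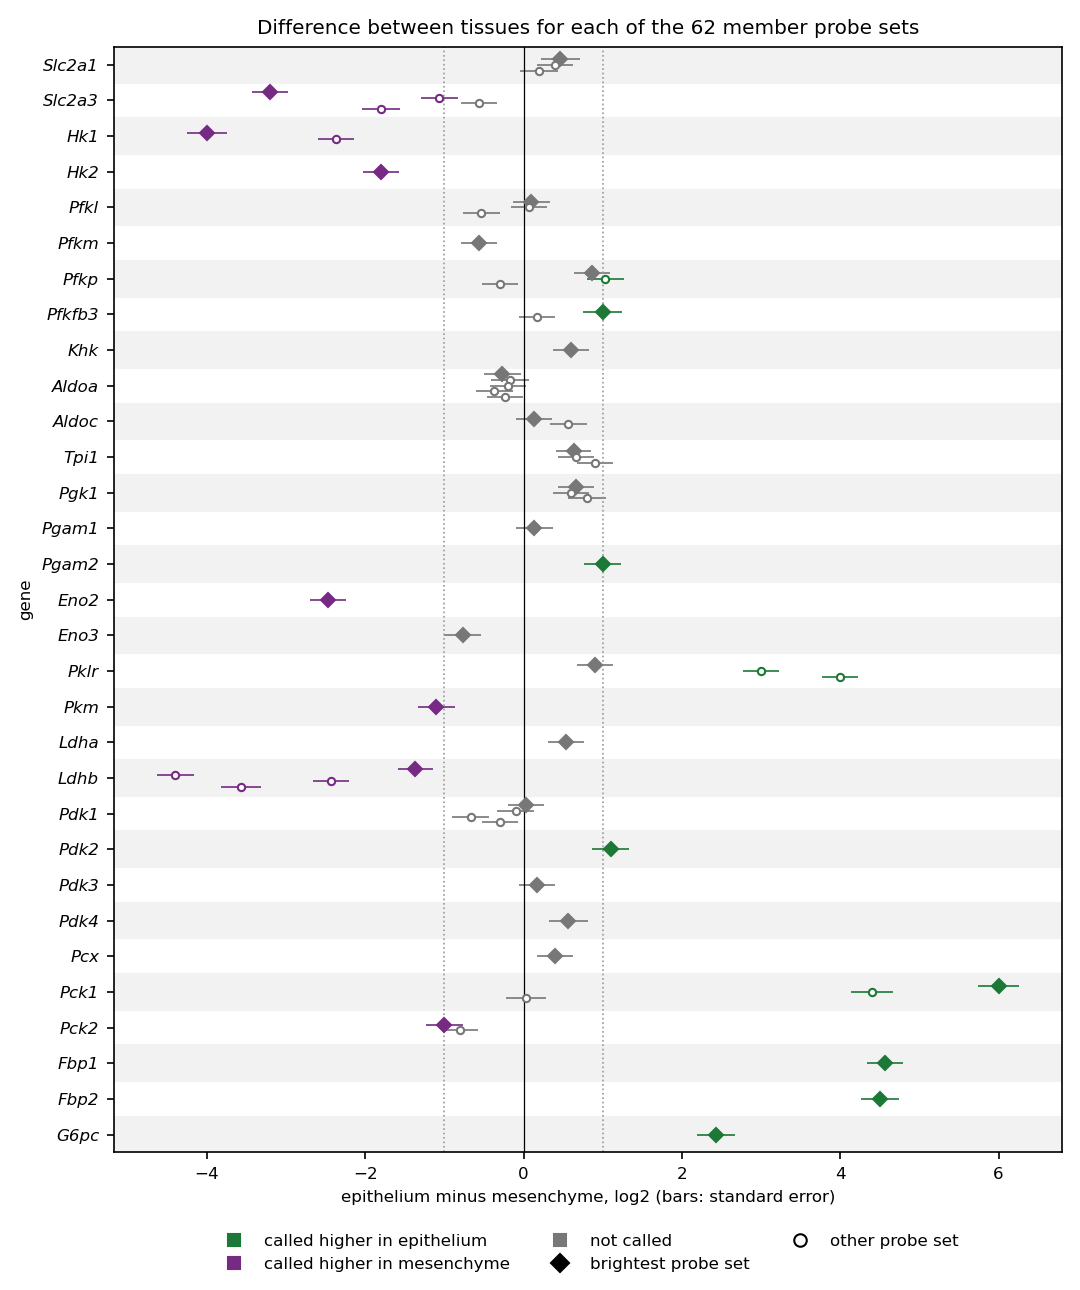
Difference between epithelium and mesenchyme (x axis, log2, with standard errors) for each of the 62 member probe sets, by gene (y axis). Filled diamonds are the brightest probe set of a gene and open circles its other ones. Green and purple mark probe sets called higher in epithelium and in mesenchyme, grey those not called, and dotted lines mark 2-fold. Probe sets spread over 5.97 for Pck1, 3.10 for Pklr, 3.03 for Ldhb and 2.63 for Slc2a3, and no gene had calls in both directions.

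Lactate dehydrogenase is a tetramer of A and B subunits, the A subunit being known for lactate formation and the B subunit for lactate use. Ldhb was at 9.6, 9.8 and 9.7 in the epithelium, against 11.1, 11.1 and 11.0 in the mesenchyme (-1.37 ± 0.22, adjusted p = 4.21e-06). Its other 3 probe sets, all dimmer, gave -2.43, -3.57 and -4.40, so that all 4 were called and the brightest one gave the smallest difference. In probe set 1434499_a_at, which gave -4.40, values were 5.4, 5.9 and 5.7 in the epithelium, against 10.2, 10.2 and 9.8 in the mesenchyme. Its epithelial values lay below the mean bacterial control of the same arrays (5.92, 6.03 and 6.07), and against that mean the reading was at least 16.7-fold lower in the epithelium. Ldha read 13.6, 13.9 and 13.7 in the epithelium, against 13.4, 13.2 and 13.0 in the mesenchyme. Its difference of 0.53 ± 0.23 was not called, although all epithelial arrays were higher.

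The kinases Pdk1 to Pdk4 switch off the pyruvate dehydrogenase complex, which feeds pyruvate into the citric acid cycle. Pdk2, the widely expressed form, was at 10.1, 10.8 and 10.1 in the epithelium, against 9.3, 9.2 and 9.2 in the mesenchyme (1.10 ± 0.24, adjusted p = 0.000239). The call ended without epithelium B (0.87) and with equal spike-in controls (0.84). Pdk4, the form induced by fasting, read 8.2, 9.0 and 8.1 in the epithelium, against 8.1, 7.8 and 7.7 in the mesenchyme (0.57 ± 0.25, not called), epithelium B standing above the rest. Pdk1, a known hypoxia target, and Pdk3 differed by 0.03 ± 0.23 and 0.17 ± 0.23, with overlapping arrays, and the 4 probe sets of Pdk1 ranged from -0.67 to 0.03. Pdp1, the phosphatase that reactivates the complex, stood outside the set at 6.4, 6.4 and 6.1 in the epithelium, against 9.9, 9.6 and 9.8 in the mesenchyme (-3.47 ± 0.23, adjusted p = 1.66e-15), the epithelial values being close to the bacterial controls. It was the only one called of 8 genes of the complex and its phosphatases (12.5%, against 24.1% of all genes). Pdp2, the second phosphatase, differed by 0.97 ± 0.23 and was not called.

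Gluconeogenesis starts with pyruvate carboxylase, whose gene Pcx read 9.1, 9.7 and 9.5 in the epithelium, against 9.0, 9.1 and 9.0 in the mesenchyme. The difference of 0.40 ± 0.23 was not called, and the arrays touched at 9.1. Of its 4 control probe sets, those for the 5' end and both middle parts differed by 0.23, 0.27 and 0.27. The 3' one read 9.6, 10.3 and 10.2 in the epithelium, against 9.1, 8.9 and 8.9 in the mesenchyme, a difference of 1.07 (exact permutation test over arrays, two-sided, p = 0.1, the smallest possible). In a limma fit with control probe sets included, the 3' one met the limits for a call (adjusted p = 0.000343). The 5' and middle ones did not. The excess of the 3' over the 5' reading of Pcx averaged 0.87 ± 0.25 in epithelial arrays, against 0.03 ± 0.25 in mesenchymal arrays (SD, n = 3 each, exact permutation p = 0.1). For Gapdh this excess was 0.03 ± 0.15 in epithelial arrays, against -0.03 ± 0.06 in mesenchymal arrays (SD, n = 3 each, exact permutation p = 0.9).

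Phosphoenolpyruvate carboxykinase makes the next step, and its cytosolic and mitochondrial forms, Pck1 and Pck2, lay in opposite tissues. Pck1 was at 11.8, 12.5 and 11.2 in the epithelium, against 5.7, 6.0 and 5.8 in the mesenchyme (1423439_at), which is the level of the bacterial controls there (5.87 to 6.25). The fitted difference was 6.00 ± 0.26 (adjusted p = 1.17e-20). With mesenchymal arrays set to no less than their mean bacterial control, the reading of this probe set was at least 53.5-fold higher in the epithelium. A second probe set gave 4.40 ± 0.26 (21.1-fold), and the remaining one, dim in all arrays at 6.3 to 7.3, gave 0.03 ± 0.26. In the mean of probe sets, the difference of Pck1 was 3.48 and kept its call. Pck2 was at 9.4, 10.0 and 9.3 in the epithelium, against 10.6, 10.7 and 10.4 in the mesenchyme (-1.0 ± 0.24, adjusted p = 0.000751), and its second probe set gave -0.80 ± 0.22. Pck2 lay on the 2-fold limit, and the call held in 7 of 17 alternative settings. It ended with quantile normalization (-0.73), equal medians (-0.70), cyclic loess (-0.76), ribosomal protein genes set equal (-0.68), the mean of both probe sets (-0.90), equal spike-in controls with mesenchyme B left out (-0.90) and without epithelium A (-0.92), epithelium C (-0.87), mesenchyme A (-0.98) or mesenchyme B (-0.93).

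Fructose 1,6-bisphosphatase undoes the phosphofructokinase step, and both of its genes were higher in the epithelium. Fbp1, the liver and kidney form, was at 13.5, 13.9 and 13.6 in the epithelium, against 9.1, 8.9 and 9.3 in the mesenchyme (4.57 ± 0.23, 23.7-fold, adjusted p = 9.47e-19). Fbp2, named as the muscle form, was at 13.3, 13.7 and 13.3 in the epithelium, against 8.9, 8.6 and 9.3 in the mesenchyme (4.5 ± 0.24, 22.6-fold, adjusted p = 3.43e-18). The paralogs thus ran in parallel, and their within-array difference was 0.2 to 0.3 in the epithelium, against 0.0 to 0.3 in the mesenchyme. Each has 1 probe set, and whether either reads the other's transcript was not tested. Among the mesenchymal arrays, both genes and the enterocyte markers were highest in array C. The other gluconeogenic genes higher in the epithelium went otherwise, with G6pc highest in mesenchyme A (8.5) and Pck1, near the bacterial controls, in mesenchyme B (6.0).

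G6pc encodes glucose 6-phosphatase, which releases free glucose and so undoes the hexokinase step. It was at 10.3, 11.0 and 10.7 in the epithelium, against 8.5, 8.0 and 8.2 in the mesenchyme (2.43 ± 0.24, 5.40-fold, adjusted p = 7.21e-11). Slc37a4, the carrier that brings glucose 6-phosphate to this enzyme, was higher in the epithelium by 2.20 ± 0.23, whereas the ubiquitous form G6pc3 differed by 0.43 ± 0.22. Hepatocyte markers moved with these genes in 5 of 9 cases, with summed levels of 14.31 to 14.66 in the epithelium, against 11.63 to 12.19 in the mesenchyme. Among them Afp (5.07 ± 0.36) and Ttr (2.27 ± 0.23) were higher in the epithelium, while Alb (0.07 ± 0.24) and Tat (0.10 ± 0.23) were not called. Afp was at 10.1 in mesenchyme C and at 8.4 and 7.2 in mesenchyme A and B, and the part of hepatocyte transcripts in the results for gluconeogenic genes was not tested. Of 4 markers of kidney proximal tubule, none was called, with summed levels of 9.89 to 10.01 in the epithelium, against 9.70 to 9.90 in the mesenchyme.

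Promoters of 33 members were present in the RefSeq table of the assembly GRCm38.p6, which gave 49 start sites, and the 250 bases before each were searched on both strands. The 5-letter core of hypoxia response elements (ACGTG or GCGTG) occurred before 33 of 49 starts (67.3%), against 38.6% of 32851 promoters of all genes. Starts of the same gene can share a site, as in Aldoa and Eno1, so these starts are not independent. By gene, 25 of 33 members had a match, and all genes were not counted in this way. Overlapping matches on opposite strands count as 1 promoter. The 4 members with the largest positive differences divided here: no match stood before Pck1, Fbp1 or G6pc, and the letters CACGTG before Fbp2 held it on both strands. Ldha, which was not called, held 5 matches before its first start, with each CACGTG stretch counted on both strands and so as more than 1 match. It also held the full cAMP response element TGACGTCA, found in 1.55% of all promoters. The variant TTACGTCA, known as the cAMP response element of Pck1 and searched for after the first results were seen, stood 93 bases before the start of Pck1 and in 0.447% of all promoters. The longer HNF4 type element CAAAGTCCA was found before none of the members' starts and before 0.384% of all. The last 150 bases before the start of Pck1, the paralogs Fbp1 and Fbp2, and Ldha are shown 5′ to 3′ on the strand of the gene, with these matches in capitals. They lie at chr2:173152923-173153072 (plus strand), chr13:62888283-62888432 (minus), chr13:62858401-62858550 (minus) and chr7:46845654-46845803 (plus).
Pck1: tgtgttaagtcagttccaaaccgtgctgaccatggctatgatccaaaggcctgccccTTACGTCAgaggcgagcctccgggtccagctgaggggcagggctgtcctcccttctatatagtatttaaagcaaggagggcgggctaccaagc
Fbp1: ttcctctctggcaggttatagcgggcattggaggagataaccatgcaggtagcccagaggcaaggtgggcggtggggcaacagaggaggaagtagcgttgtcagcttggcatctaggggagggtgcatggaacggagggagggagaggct
Fbp2: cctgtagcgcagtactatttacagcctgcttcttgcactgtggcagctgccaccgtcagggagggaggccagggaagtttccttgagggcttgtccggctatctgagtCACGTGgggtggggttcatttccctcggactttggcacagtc
Ldha: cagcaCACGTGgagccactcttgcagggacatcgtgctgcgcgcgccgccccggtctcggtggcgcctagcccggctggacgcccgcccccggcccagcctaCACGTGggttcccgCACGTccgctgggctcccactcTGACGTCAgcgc

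Isozyme choice was compared as the log2 ratio of 2 genes within each array, in which any shift of a whole array cancels. Of 29 pairs, 27 were measured, and ratios did not overlap between tissues in 23 of them, against 61.3% of all pairs of genes. With 3 arrays against 3, the exact two-sided permutation test cannot give less than p = 0.1, which it gave for these 23 pairs (adjusted p = 0.117 over the 27 pairs). A ratio shows unequal change between 2 genes and not which of them changed.

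Pck1 over Pck2 shifted by 7.00 in the brightest probe sets, and by 4.38 in the mean of probe sets. Slc2a1 over Slc2a3 was 3.4, 3.5 and 4.2 in the epithelium, against 0.0, -0.4 and 0.5 in the mesenchyme. This shift of 3.67 was 2.01 in the mean of probe sets and 1.53 with probe sets that may read several transcripts avoided. Pklr over Pkm was 0.4, 0.0 and 0.1 in the epithelium, against -1.7, -1.9 and -1.9 in the mesenchyme, a shift of 2.00 that was 3.73 in the mean of probe sets. Each of these pairs moved towards the form named first in the epithelium. Ldha over Ldhb shifted by 1.90, and by 3.48 in the mean of probe sets, and Hk1 over Hk2 by -2.20, and by -1.38 in that mean. Within phosphofructokinase, Pfkm over Pfkp was -1.0 in every epithelial array and 0.4, 0.5 and 0.4 in the mesenchyme, a shift of -1.43, although neither gene alone was called. By the same exact permutation test, p was 0.9 for Fbp1 over Fbp2 (0.07), whose sign turned without mesenchyme C (-0.017), and 0.3 for Pdk1 over Pdk3 (-0.13, and -0.43 in the mean of probe sets). It was 0.2 for Pdk3 over Pdk4 (-0.40) and for Aldoa over Aldoc (-0.40, against -0.82 after quantile normalization and -0.66 after cyclic loess).

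Opposed steps were set against each other in the same way. G6pc over Hk1 was 3.8, 3.3 and 3.8 in the epithelium, against -2.5, -3.1 and -2.8 in the mesenchyme, a shift of 6.43, and G6pc over Hk2 shifted by 4.23. Fbp1 shifted by 4.47 over Pfkl, by 5.13 over Pfkm and by 3.70 over Pfkp. Pck1 over Pkm shifted by 7.10, and by 4.58 in the mean of probe sets. Pck1 over Pklr depended on the probe sets, with a shift of 5.10 in the brightest ones, against 0.84 in the mean of probe sets. In the brightest probe sets, all these ratios were higher in every epithelial array than in any mesenchymal array, and the mesenchymal Pck1 readings in them lay at the level of the bacterial controls. The pairs of Pcx ran in opposite directions. Pcx over Pkm was -2.2, -2.2 and -2.1 in the epithelium, against -3.7, -3.7 and -3.6 in the mesenchyme, a shift of 1.5. Pcx over Pklr was -2.6, -2.2 and -2.2 in the epithelium, against -2.0, -1.8 and -1.7 in the mesenchyme. This shift of -0.50 was -2.23 in the mean of probe sets and -0.24 after quantile normalization, and -0.31 after cyclic loess.

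**Figure D3:**
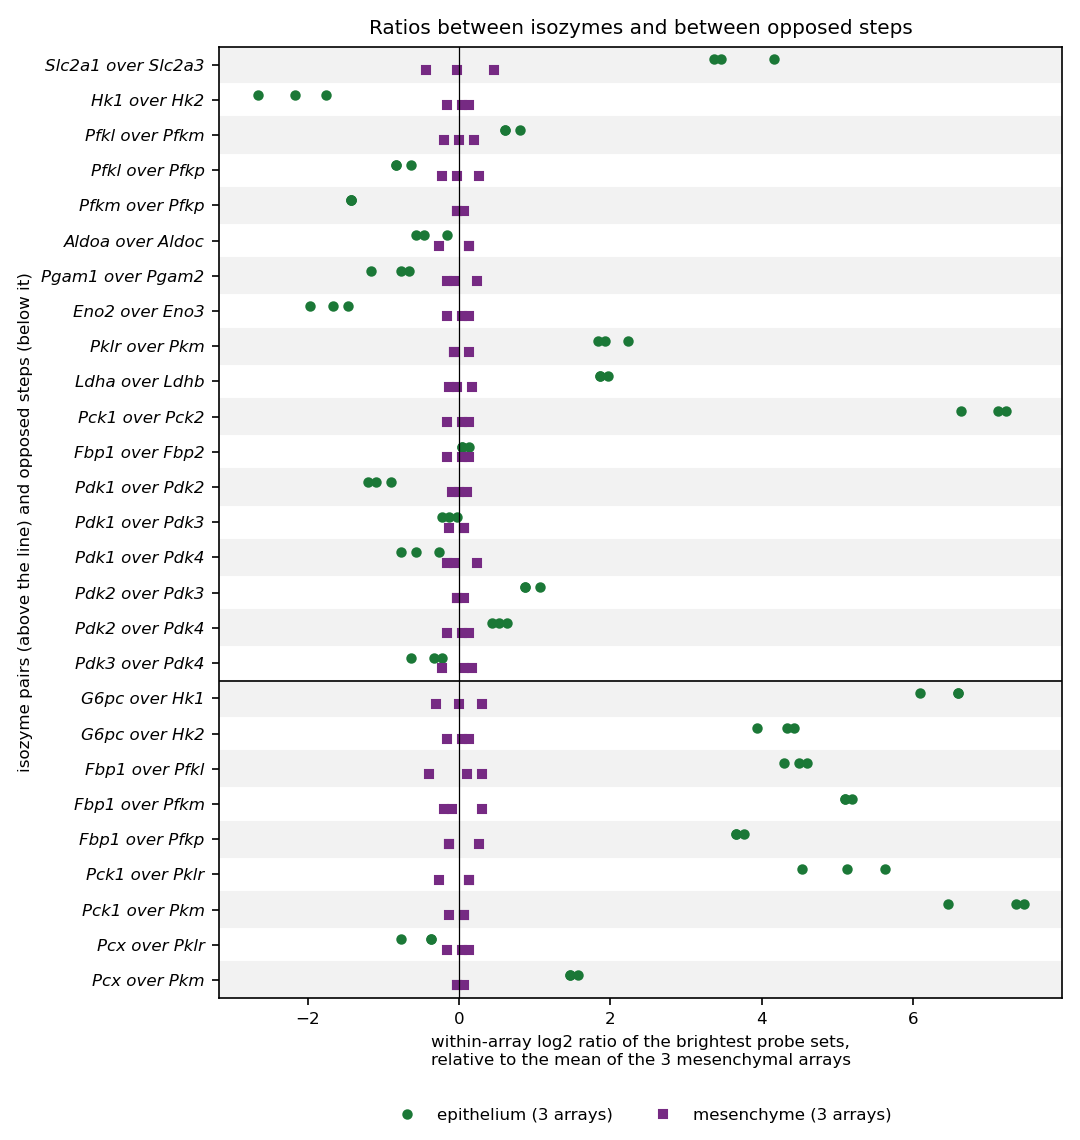
Within-array log2 ratio of the brightest probe sets (x axis, relative to the mean of the mesenchymal arrays) for 18 isozyme pairs (above the line) and 9 pairs of opposed steps (below it), in 3 epithelial arrays (green circles) and 3 mesenchymal arrays (purple squares). Ratios of gluconeogenic over glycolytic genes lie 3.70 to 7.10 higher in the epithelium, apart from both pairs of Pcx, and Fbp1 over Fbp2 overlaps between tissues.

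Other genes of glucose metabolism were counted from lists of pathway genes outside the set. Beside each count stand the shares over all genes, 8.19% called higher in the epithelium and 15.9% called higher in the mesenchyme. Of 16 sugar, lactate and pyruvate carriers and their partners, 5 were higher in the epithelium, including the glucose carriers Slc2a2 (5.10 ± 0.25) and Slc5a1 (4.47 ± 0.23). In the mesenchyme 4 were higher, including Slc2a13 (-2.90 ± 0.23), a carrier of inositol, the glucose carrier Slc2a4 (-1.20 ± 0.23) and Slc2a10 (-1.07 ± 0.24). The lactate and pyruvate carriers divided, with Slc16a1 higher in the epithelium (1.53 ± 0.23) and Slc16a7 in the mesenchyme (-2.90 ± 0.23). Of 6 measured genes of fructose and galactose entry, 3 were higher in the epithelium, namely Tkfc (1.70 ± 0.23), the kinase that follows Khk in fructose use, Galm (1.63 ± 0.23) and Galt (1.60 ± 0.23). Of 16 genes of gluconeogenic precursors and shuttles, 7 were higher in the epithelium, against 1 in the mesenchyme. The mitochondrial aspartate-glutamate carriers took opposite sides, with Slc25a13 higher in the epithelium (2.10 ± 0.24) and Slc25a12 in the mesenchyme (-1.87 ± 0.25), and glycerol 3-phosphate dehydrogenase Gpd1 was higher in the epithelium (2.07 ± 0.24).

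In the pentose phosphate pathway, 4 of 7 genes were higher in the epithelium and none in the mesenchyme, among them Pgd and H6pd (1.5 ± 0.23 each). Of 16 glycogen genes, 2 were higher in the epithelium, against 4 in the mesenchyme. All 3 glycogen phosphorylase genes were higher in the mesenchyme, with -2.47 ± 0.23 for Pygb, -2.23 ± 0.25 for Pygl and -1.13 ± 0.23 for Pygm, while Pgm1 was higher in the epithelium (1.57 ± 0.23). Of 13 other glycolysis isozymes and regulators, 3 were higher in the epithelium, namely Hkdc1, Pfkfb4 and Gapdhs (1.00 ± 0.23, on the limit). The share of all genes called, for comparison, was 24.1%.

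Regulators of the pathway went both ways, 6 of 24 being higher in the epithelium, against 2 in the mesenchyme. For this list and the next, the shares over all genes were 8.19% in the epithelium and 15.9% in the mesenchyme. Creb3l3 (3.5 ± 0.23), Hnf4a (3.00 ± 0.23) and Ppara (2.00 ± 0.23), transcription factors of liver metabolism, were higher in the epithelium, as was Mlxipl (1.23 ± 0.24), which encodes the carbohydrate-responsive factor ChREBP. Epas1, which encodes the hypoxia-inducible factor HIF-2 alpha, was higher in the mesenchyme (-3.47 ± 0.27), and Hif1a differed by -0.90 ± 0.24 and was not called. Of 12 other genes known as hypoxia targets, 2 were higher in the epithelium (Ndrg1, 2.50 ± 0.23, and Car9, 1.23 ± 0.23) and 2 in the mesenchyme (the collagen prolyl hydroxylases P4ha1, -2.57 ± 0.23, and P4ha2, -2.33 ± 0.23).

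**Figure D4:**
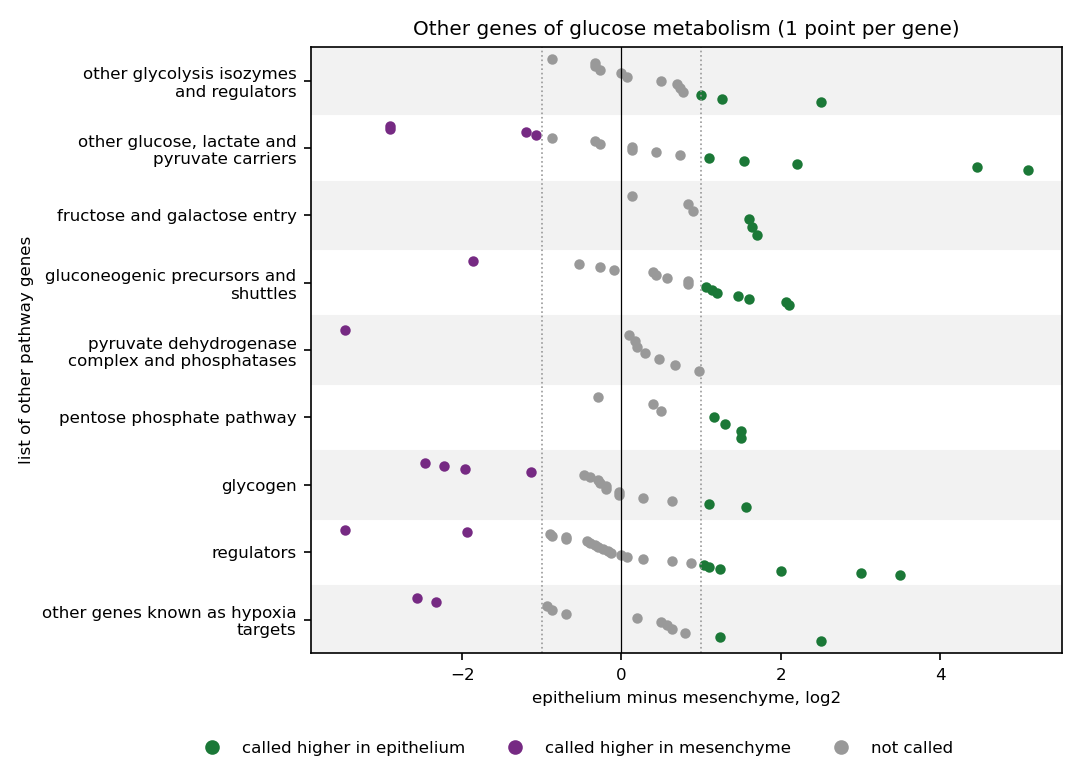
Difference between epithelium and mesenchyme (x axis, log2) for genes of 9 lists of glucose metabolism outside the set (y axis), 1 point per gene. Green points were called higher in the epithelium, purple points higher in the mesenchyme and grey points were not called, and dotted lines mark 2-fold. The 4 called pentose phosphate genes all lie on the epithelial side, and Pdp1 stands alone at -3.47 among genes of the pyruvate dehydrogenase complex.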

How the data were processed

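The deposited table holds a log2 expression value for each probe set and array (Affymetrix, mouse). The submitters' processing notes name RMA as the authors' method; its version and settings are not given in the sources used here. Values were rounded to 0.1 and carried no detection calls. Probe sets were named by the platform annotation, updated to RefSeq symbols of GRCm38.p6 (34741 by gene ID, 143 by symbol, 59 by synonym, 2 kept). Of 45101 probe sets, 64 controls were set aside. limma (version 3.58.1, R 4.3.3, with lmFit, eBayes and no covariate) was fitted over 45037 probe sets and over 18161 genes, with Benjamini-Hochberg adjustment. Printed standard errors and adjusted p-values come from the fit over probe sets (prior degrees of freedom 31.7). Gene calls come from the fit over genes (prior degrees of freedom 252.5). The fit was checked on simulated data. Nothing says that pools were separate litters, so p-values do not reach beyond these pools, and 3 arrays per tissue limit the precision. With 4 residual degrees of freedom, the spread used for each probe set came mostly from that of all probe sets.

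Members, pairs and lists were chosen with earlier results of these data known. All members are named, and up to 4 called genes per list and direction. Promoters were searched with exact letters. The list of fructose genes also held the adenylate kinase gene Ak3. Whether arrays of the same letter (A, B or C) share embryos is not known, and the main fit used no block for the letters. Correlations of same-letter deviations were -0.27, -0.11 and 0.13, against -0.28 to 0.37 for different letters. These values cannot decide on pairing, because each tissue has few arrays and deviations within a tissue cancel. Alternatives were 5 scalings, other choices of probe set, a filter on dim probe sets, the block, leaving out each array, no moderation and no minimum difference.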

Additional observations from a re-analysis of the deposited data

How the results depend on the processing

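Of 14 called members, 9 kept their call in all 17 alternative settings (Pck1, G6pc, Fbp1, Fbp2, Hk1, Hk2, Eno2, Ldhb and Slc2a3), and the 5 others had differences of 1.00 to 1.10 in size. Scaling shifted the median difference of all genes by 0.21 (cyclic loess), 0.27 (quantile), 0.30 (equal medians), 0.32 (ribosomal) and -0.26 (spike-in controls), and the share of calls on the mesenchymal side, 66.0% as deposited, to 55.4%, 53.0%, 49.4%, 48.8% and 77.5%. The balance of calls, 7 members higher in the epithelium and 7 in the mesenchyme as deposited (11 and 13 probe sets), tipped either way with scaling. It was 9 and 5 members (15 and 10 probe sets) with equal medians and with ribosomal scaling, 8 and 6 (12 and 11) after quantile normalization, 7 and 6 (11 and 11) after cyclic loess, and 4 and 8 (7 and 15) with equal spike-in controls. Mesenchyme B had the lowest mean of these controls (9.80, other arrays 10.56 to 10.77), and with that array left out, an alternative chosen after seeing the data, the balance was 5 and 6 (9 and 12). Without a minimum difference, 14 members (15.0% of all genes) and 20 probe sets (10.7% of all) were higher in the epithelium. Without moderation, the balance was 6 and 7 members (9 and 12 probe sets). The settings without a minimum difference and without moderation are not among the 17 above. Leaving out 1 array gave 4 to 7 members and 7 to 12 probe sets higher in the epithelium, the lowest counts being those without epithelium B. Signs turned for members that were not called: Aldoa with equal medians (0.033) and ribosomal scaling (0.048); Aldoc (-0.13), Pfkl (-0.16), Pgam1 (-0.13), Pdk1 (-0.23) and Pdk3 (-0.094) with spike-in scaling; Pdk1 with spike-in scaling without mesenchyme B (-0.0019); and Pfkl (-0.12) and Pdk1 (-0.26) in the mean of probe sets. With 1 array left out, Aldoc ranged from -0.05 to 0.25, Pgam1 from -0.067 to 0.23 and Pdk1 from -0.13 to 0.17. The replicate block gave 7 and 7 called members, as without it, and called 4377 genes against 4381. Of 270 isozyme ratios under alternatives, 243 lay within 1 SD of the main value and 1 had the opposite sign (Fbp1 over Fbp2 without mesenchyme C, -0.017). Many of these alternatives left out 1 array and so kept most of the data. Larger moves came with the mean of probe sets: Pck1 over Pklr 0.84 (main 5.10), Pck1 over Pck2 4.38 (main 7.00) and Pklr over Pkm 3.73 (main 2.00). Except for array and probe set choices named here, the cause was not tested. Lower bounds against bacterial controls, for probe sets with every array of one tissue within 0.5 of those controls or below them, were added after seeing the data. Without detection calls, other values near background cannot be marked.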
